A study of Rattus norvegicus with 13 samples.

Results

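The ADAM and ADAMTS proteases were examined as the genes whose symbol is Adam, Adamts or Adamtsl followed by a number and at most 1 further letter, wherever such a symbol was given to a peak in any of 4 peak lists. There were 38 such genes among the 21397 genes named in the lists, and 468 of the 154284 peaks were annotated to them. The lists come from CUT&Tag, in which an antibody guides a transposase to cut out the DNA around its target, in cultured rat aortic smooth muscle cell (SMC) lines. H3K4me2, histone H3 dimethylated at lysine 4, was profiled in 3 lines with 3 samples each. They were an unmodified control line (Control, also labelled WT), a line with Myocd-LSD1 and a line with Myocd-LSD1NF. The FLAG tag of the fusion was profiled in 4 samples of the FLAG-tagged Myocd-LSD1 line. By their names the fusions join myocardin, the coactivator of SMC genes, to LSD1, the demethylase that removes methyl groups from H3K4. The labels do not spell out NF, and neither the promoter driving each fusion nor whether a line is 1 clone is stated in the sources used here. All lines grew in the same serum-containing medium, and nothing states that the samples of a group came from separate cultures.

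ADAM proteins sit in the plasma membrane, where those with a working metalloproteinase site cut the outer parts of growth factors, receptors and adhesion proteins free. ADAMTS proteins are secreted and cut matrix molecules such as versican, aggrecan, procollagen and cartilage oligomeric matrix protein (COMP), while ADAMTS-like proteins resemble them without a protease domain and bind the microfibrils of the matrix. In the artery wall they act in matrix turnover, and several of them are known from aortic and atherosclerotic disease. H3K4me2 marks active and poised promoters and enhancers, so a peak at a gene records this mark and not the amount of its RNA or protein.

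The files give 1 peak list per group and 1 table that compares Myocd-LSD1 with Myocd-LSD1NF, with no values per sample, so the spread between samples is not shown and the read depth is unknown. The H3K4me2 lists held 42672 (Control), 42405 (Myocd-LSD1) and 42727 peaks (Myocd-LSD1NF), and the FLAG list held 26480. The labelled cell type was read against marker genes. All 6 SMC markers had a peak within 3 kb of an annotated transcription start site (TSS) in the Control and Myocd-LSD1NF lists, and 5 of 6 had one in Myocd-LSD1, where Myh11 was the exception; 65.8%, 61.7% and 64% of all named genes had one in these lists. The authors' deposited table, which compares Myocd-LSD1 with Myocd-LSD1NF, lists lower sites at Cnn1 (log2 differences -3.18 and -3.25) and Lmod1 (-1.23), and a lower (-1.07) and a higher site (0.77) at Acta2. Among 4 endothelial markers, Kdr had such a peak in Control and none had one in the fusion lines. The fibroblast marker Pdgfra and the macrophage receptor gene Csf1r had promoter peaks in all 3 H3K4me2 lists, while Lum, Dcn, Ptprc and Cd68 were named in no list.

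Promoter sequences are shown for the members with a differential H3K4me2 site at their TSS and an available sequence, and for Adamts18, a member without a promoter peak in any list. They come from RefSeq, build GRCr8, which held a promoter entry for 26 of the 38 members. The peaks are in build rn6, so the sequences were matched by gene symbol and not by position, and the windows may begin at another TSS than the one a peak was annotated to. Each window holds the 250 bases before the start, 5′ to 3′ on the gene's strand, with every CG dinucleotide in capitals.
Adamtsl1 promoter window, chr5:105010266-105010515, plus strand: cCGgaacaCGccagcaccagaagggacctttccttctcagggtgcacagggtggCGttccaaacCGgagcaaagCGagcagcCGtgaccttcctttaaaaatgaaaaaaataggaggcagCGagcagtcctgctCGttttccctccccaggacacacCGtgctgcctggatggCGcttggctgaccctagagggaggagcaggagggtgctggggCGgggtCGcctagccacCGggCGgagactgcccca
Adamts7 promoter window, chr8:99584279-99584528, plus strand: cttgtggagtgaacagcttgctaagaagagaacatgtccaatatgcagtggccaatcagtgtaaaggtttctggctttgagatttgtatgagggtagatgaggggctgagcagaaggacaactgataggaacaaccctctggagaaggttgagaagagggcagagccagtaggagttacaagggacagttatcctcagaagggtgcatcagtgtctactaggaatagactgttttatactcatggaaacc
Adamts20 promoter window, chr7:127407297-127407546, minus strand: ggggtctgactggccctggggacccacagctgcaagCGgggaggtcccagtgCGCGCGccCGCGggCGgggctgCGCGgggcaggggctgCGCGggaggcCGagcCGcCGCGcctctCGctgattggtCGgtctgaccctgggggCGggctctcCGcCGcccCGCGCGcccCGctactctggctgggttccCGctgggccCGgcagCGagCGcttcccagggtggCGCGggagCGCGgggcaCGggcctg
Adamts18 promoter window, chr19:58748940-58749189, minus strand: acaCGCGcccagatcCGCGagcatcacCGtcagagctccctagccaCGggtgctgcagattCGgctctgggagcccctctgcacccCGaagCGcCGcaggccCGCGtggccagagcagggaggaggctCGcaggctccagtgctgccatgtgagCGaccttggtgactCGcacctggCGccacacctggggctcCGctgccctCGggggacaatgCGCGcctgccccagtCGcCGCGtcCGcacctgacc
The Adamtsl1 window holds 14 CG dinucleotides, that of Adamts7 holds 0, that of Adamts20 holds 33 and that of Adamts18 holds 24. The pair shown with sites higher in Myocd-LSD1 includes a window without any CG, that of Adamts7, a gene with several TSSs in rn6. Whether this window lies at the TSS with the higher site is unknown. The Adamts18 window is rich in CG, and no promoter peak was annotated to that gene.

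Over the 26 members with an entry the median was 21 CG dinucleotides per window, with a range from 0 to 43, against a median of 6 over the 27457 promoters of all genes. A CG occurs in 92.5% of all promoters. Members are by their definition genes with a peak, while the promoters of all genes were taken with or without one. The 2 sets are therefore unlike, for the CG numbers and for the GC box below. The 20 members with a promoter peak in all 3 H3K4me2 lists had a median of 23, and the 5 with none had a median of 9. The GC box, searched as GGGCGG or its reverse complement CCGCCC, each of which contains a CG, was found in 16 of the 26 windows (61.5%) and in 32.4% of all promoters. It occurred in 15 of the 20 windows of members with promoter peaks in all 3 lists and in 0 of the 5 without. The matching split over all genes was not counted for the CG numbers or the GC box, so neither split is shown to be a trait of the family. The CArG box, the motif of serum response factor to which myocardin is tethered, was searched on both strands and found in 0 of the 26 windows and in 1.50% of all promoters. A match describes the letters of the window and is not a binding site, and the absence of a match says only that these letters are not in these 250 bases.

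**Figure D1:**
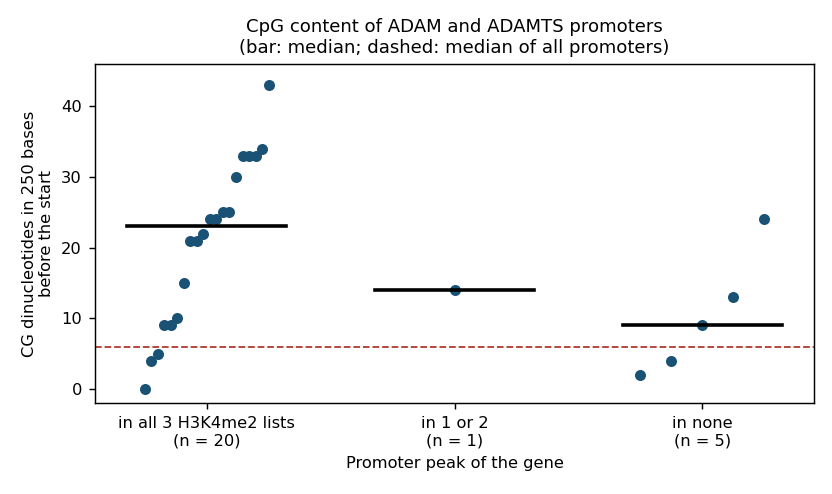
CG dinucleotides in the 250 bases before the RefSeq start (y axis, number) for 26 members, grouped by whether the gene had a promoter peak in all 3 H3K4me2 lists, in 1 or 2 of them, or in none; points are genes, bars are group medians and the dashed line is the median of all promoters. The medians were 23 for all 3 lists (n = 20) and 9 for none (n = 5), and the groups overlap.

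Most members carried H3K4me2 in all 3 lines. A peak was annotated to 36 members in the Control list (86.5% of all named genes had one), to 33 in the Myocd-LSD1 list (85.1%) and to 33 in the Myocd-LSD1NF list (83.2%). A promoter peak was present at 29 members in Control (65.8% of all genes), at 28 in Myocd-LSD1 (64% of all genes) and at 26 in Myocd-LSD1NF (61.7% of all genes). FLAG peaks were annotated to 29 members (70.7% of all genes), and 18 had one at the promoter (44.2% of all genes). All 18 members with a FLAG promoter peak were among the 25 with an H3K4me2 promoter peak in all 3 lines. The matching share over all genes was not counted, so this is not shown to be a trait of the family. The match is by gene and not by position, and the FLAG promoter peak of Adamts3 overlapped no H3K4me2 peak. Within 1 kb of a TSS, 13 members had a FLAG peak. The plot of peak numbers by gene and list gives every member.

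**Figure D2:**
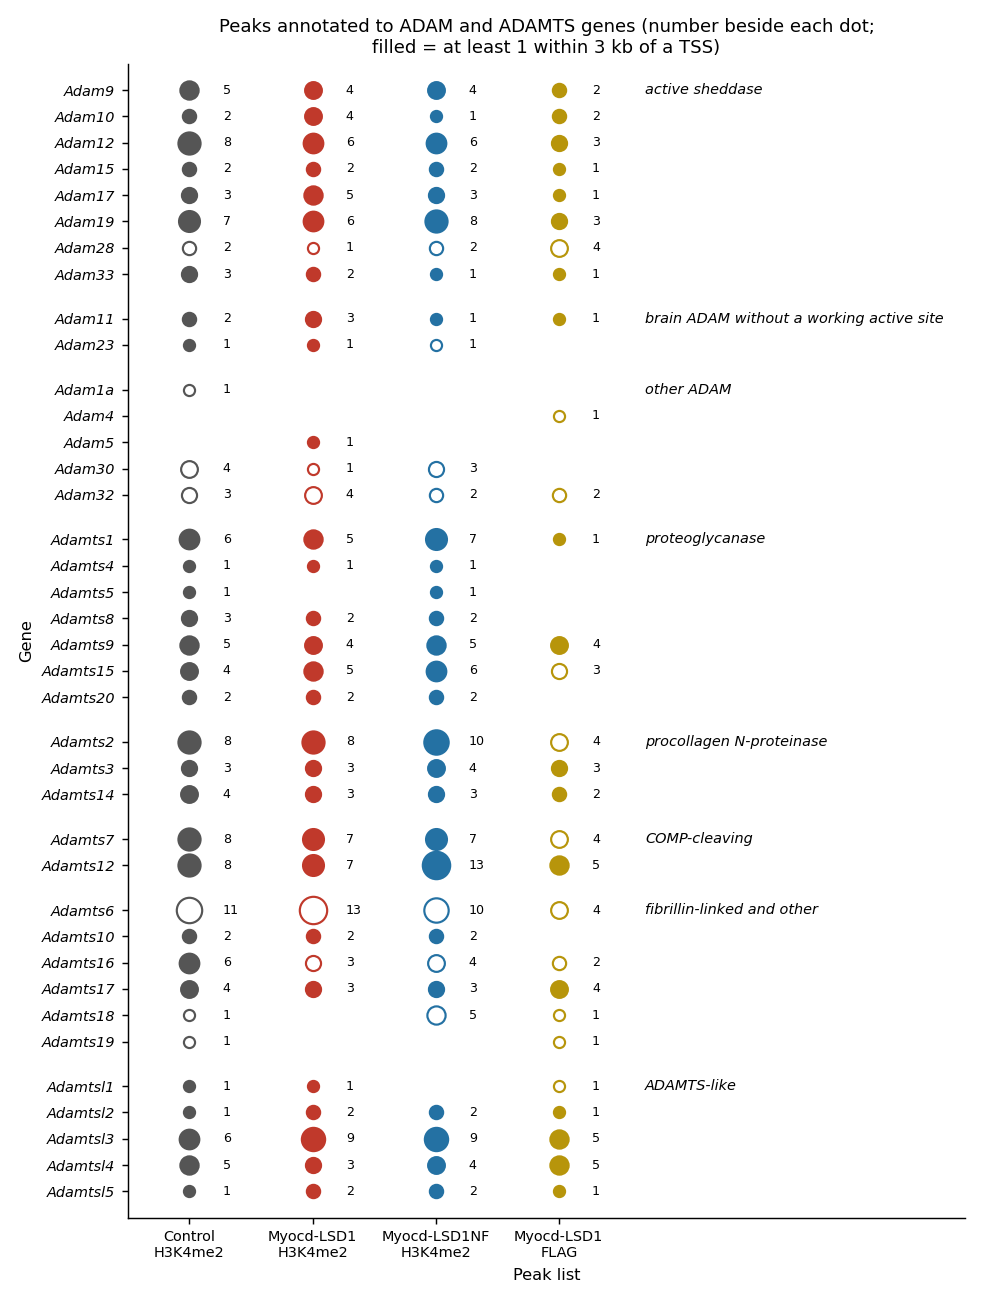
Number of peaks annotated to each of the 38 members (rows, grouped by role) in each of 4 peak lists (columns); the number stands beside each dot, dot area grows with it, and filled dots have at least 1 peak within 3 kb of a TSS. Adamts6, with 38 peaks over the lists, has open dots throughout, while the sheddases other than Adam28 are filled in every list.

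A larger share of these peaks than of all peaks lay in introns, and a smaller share at promoters. In Control 29.6% of the members' 135 peaks were promoter peaks (95% exact binomial interval 22.1% to 38.1%), against 45.8% of all peaks, and 39.3% lay in introns (31.0% to 48.0%), against 25.6%. In Myocd-LSD1NF the promoter share was 27.9% of 136 peaks (20.6% to 36.3%) against 42.5%, and the intron share 42.6% (34.2% to 51.4%) against 27.3%. For FLAG the promoter share was 25.0% of 72 peaks (15.5% to 36.6%) against 40.1%. The Myocd-LSD1 promoter share, 35.2% of 125 peaks, had an interval from 26.9% to 44.2%, which ended just below the 44.6% of all peaks. Peaks of 1 gene are not independent of each other, and the intervals cover counting error only. Members had a median of 9 peaks over the 4 lists and all genes a median of 5. In Control, members had 3.75 peaks per gene with a peak and all genes 2.30. There, 40 promoter peaks fell to 36 members and 19532 to 18516 genes, so the smaller share was not fewer promoter peaks per gene. For FLAG, 18 fell to 29 members and 10629 to 15125 genes, which is fewer per member.

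**Figure D3:**
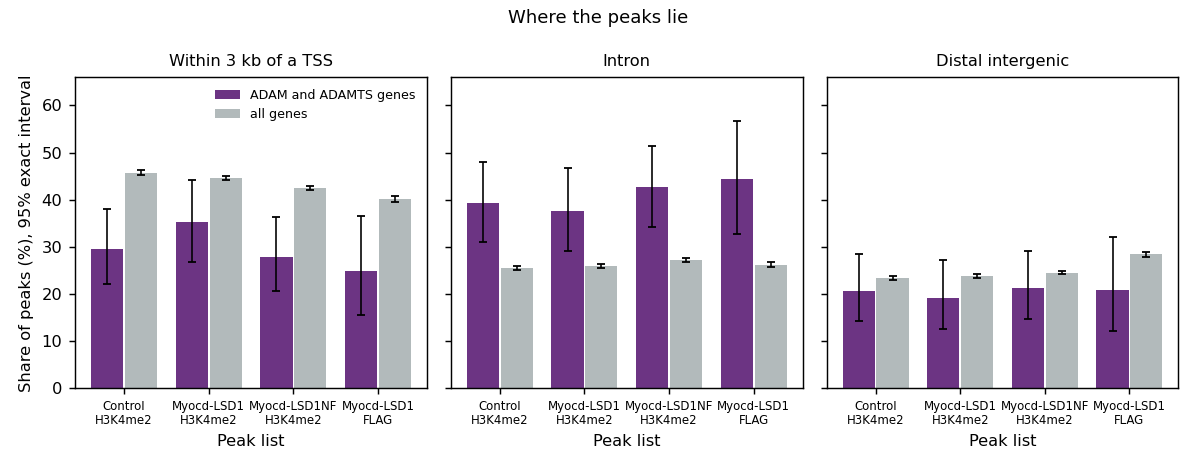
Share of peaks (y axis, percent) within 3 kb of a TSS, in introns and in distal intergenic regions for the members and for all genes in each peak list; error bars are 95% exact binomial intervals. In Control the members had 29.6% of their peaks at promoters and 39.3% in introns, against 45.8% and 25.6% for all genes.

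The 8 active sheddases were Adam9, Adam10, Adam12, Adam15, Adam17, Adam19, Adam28 and Adam33. Of these, 7 had a promoter peak in each H3K4me2 list and in the FLAG list. Adam15, a sheddase with an integrin-binding disintegrin domain, had the highest-scoring member peak of the Control list (score 803, where the score is 10 times the -log10 q-value) and of the Myocd-LSD1 list (1103). Adam17, the main sheddase of tumour necrosis factor and several ligands of the EGF receptor, had a TSS peak with a score of 880 in Myocd-LSD1NF and a FLAG peak over the TSS with a score of 193. The highest FLAG peak of any member covered the TSS of Adam9, a broadly expressed sheddase, with a score of 391 and a fold enrichment of 12.1. Of all FLAG peaks, 1.44% scored higher. Adam12, made by growing mesenchymal cells, had a FLAG peak 42 bp inside its TSS with a score of 163. Scores and fold enrichments are the authors' values and rank peaks only within their own list.

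Differential sites at the sheddases were all higher in Myocd-LSD1 than in Myocd-LSD1NF, with 5 sites at 3 genes. Of all named genes, 11.7% had a higher site, 8.4% a lower site and 19% any site at a false discovery rate (FDR) of at most 0.05. The table gives a mean concentration per line, a log2 read level averaged over its 3 samples. The lowest value of the Myocd-LSD1NF column is -0.11, shared by 454 sites, and the size of a difference from a value near it is uncertain. Adam33, a sheddase of mesenchymal cells linked to airway disease in humans, had the largest difference among the members. At chr3:123607077-123607679 (rn6), which covers the Adam33 TSS, the authors' deposited table gives 5.86 on the log2 scale in Myocd-LSD1 against 0.67 in Myocd-LSD1NF (difference 5.19) with FDR 0.00057. A second Adam33 site in the same peak, at chr3:123606258-123606795, had 5.18 and 1.31 in the authors' deposited table (difference 3.88, FDR 0.0169). A TSS peak was called in the Control list and the Myocd-LSD1 list and not in Myocd-LSD1NF, while a further peak, 1814 to 1867 bp inside the gene, was called in all 4 lists. A peak over exon 8, 8194 bp inside the gene, was called only in Control among the 4 lists.

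Adam10, the sheddase of Notch receptors and cadherins, had a TSS peak in all 4 lists and no site listed there. Its higher sites lay inside the gene. The site at chr8:77109624-77109877, 2088 bp from the nearest TSS, averaged 4.97 on the log2 scale in Myocd-LSD1 against 2.37 in Myocd-LSD1NF (difference 2.60) with FDR 0.0014, in the authors' deposited table. For the site at chr8:77119893-77120568, in intron 1, the authors' deposited table gives 3.90 and 0.89 (difference 3.01, FDR 0.00752). Adam17 had its site at chr6:43456417-43457112, 8137 bp upstream, with 4.07 and 0.31 (difference 3.76, FDR 0.00753) in the authors' deposited table. These 3 sites overlapped a peak of the Myocd-LSD1 list and no peak of the Control, Myocd-LSD1NF or FLAG lists. Of all higher sites, 99.9% overlapped a Myocd-LSD1 peak, 69.2% a Control peak, 46.7% a Myocd-LSD1NF peak and 32.5% a FLAG peak.

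Adam28 differed from the other sheddases in having no promoter peak in any list. Its 5 H3K4me2 peaks were all distal, and its 4 FLAG peaks lay 347154 bp or more from the TSS without an H3K4me2 peak under them. Adam19, a sheddase of neuregulins, had 24 peaks and no site. Adam11 and Adam23 belong to the brain ADAMs that lack a working active site and act as ligands at synapses. Adam11 had the highest-scoring member peak of the Myocd-LSD1NF list (1267, fold enrichment 16.8) and the second highest of the Control (751) and Myocd-LSD1 (989) lists. These peaks lay 2553 to 2579 bp from an internal TSS of Adam11, and a peak at its first TSSs was called in the Control and Myocd-LSD1 lists and not in Myocd-LSD1NF. Adam23 had a TSS peak in Control (fold enrichment 7.88) and in Myocd-LSD1 (4.12), and in Myocd-LSD1NF only a peak in intron 3. The 5 remaining ADAM genes, Adam1a, Adam4, Adam5, Adam30 and Adam32, had no site. Adam5 had a single peak in the whole series, at its promoter in Myocd-LSD1 (fold enrichment 5.88). All 11 peaks annotated to Adam32 lay inside its neighbour Adam9, and 5 of the 8 peaks of Adam30 lay inside Notch2, so these peaks cannot be assigned to either gene of the pair. Adam1a had 1 peak, inside Mapkapk5, and Adam4 had 1 distal FLAG peak.

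The 7 proteoglycanases cut versican and aggrecan. All 7 (Adamts1, Adamts4, Adamts5, Adamts8, Adamts9, Adamts15 and Adamts20) had a promoter peak in Control and in Myocd-LSD1NF, 6 had one in Myocd-LSD1, and Adamts1 and Adamts9 had one for FLAG. Adamts20 had a lower site at its TSS, at chr7:135629996-135631074, with 5.94 on the log2 scale in Myocd-LSD1 against 6.93 in Myocd-LSD1NF (difference -0.99) with FDR 0.00311, in the authors' deposited table. The Adamts20 peak was called in all 3 H3K4me2 lists and no FLAG peak was annotated to the gene. A distal site 181787 bp from the Adamts15 TSS, at chr8:31818208-31818591, was lower: the authors' deposited table gives 3.43 in Myocd-LSD1NF and -0.08 in Myocd-LSD1 with FDR 0.0187, and -0.08 is the lowest value of that column, shared by 233 sites, so no fold is given. Adamts9, a secreted protease also active in the secretory pathway, had a higher site 73665 bp upstream, at chr4:124934662-124935480, with 4.64 and 2.48 (difference 2.16, FDR 0.0133) in the authors' deposited table. That site carried a peak in all 4 lists.

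Other strong peaks of the proteoglycanases had no site listed, also at Adamts9 and Adamts15, whose sites lay elsewhere. Adamts9 had a promoter peak with a score of 624 in Control and 833 in Myocd-LSD1, and a FLAG peak in the gene body with a score of 172. Adamts8 had one with a score of 531 in Control, 165 bp inside its TSS, and Adamts15, whose TSS lies 17306 bp away, had one with a score of 715 in Myocd-LSD1. Adamts1 had 19 peaks and Adamts4 had 3, 1 in each H3K4me2 list. Adamts5, the main aggrecanase of mouse cartilage, had a promoter peak in Control (fold enrichment 3.78) and Myocd-LSD1NF (4.37) and none annotated to it in Myocd-LSD1. In that list a peak at chr11:25457137-25458204, 498 bp upstream of the Adamts5 TSS, was annotated to the neighbouring LOC102552725, and peaks at the same place were in the Control and Myocd-LSD1NF lists. Counting any TSS within 3 kb, a reading of the promoter pattern added after the data were seen, Adamts5 had a promoter peak in all 3 lines.

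Adamts2, Adamts3 and Adamts14 are the procollagen N-proteinases, which remove the amino-terminal propeptides of fibrillar procollagens. All 3 had a promoter peak in each H3K4me2 list, and Adamts3 and Adamts14 had one for FLAG. Adamts2 had 3 intronic sites, all lower in Myocd-LSD1, the largest number for a member together with Adamtsl3. At chr10:36118914-36119489, in intron 2, the mean log2 level was 4.45 in Myocd-LSD1 against 6.22 in Myocd-LSD1NF (difference -1.77) with FDR 1.62e-05, in the authors' deposited table. The site at chr10:36121122-36121459, in the same intron, had 2.49 and 4.92 (difference -2.43, FDR 0.000354) in the authors' deposited table. For chr10:36175896-36176829, in intron 3, the authors' deposited table gives 6.78 and 7.44 (difference -0.67, FDR 0.0499), which lies at the edge of the threshold. All 3 overlapped Control peaks, the second and the third overlapped FLAG peaks, and the second had no peak in the Myocd-LSD1 list. The Adamts2 TSS peak, with a score of 868 in Myocd-LSD1NF, carried no site.

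Adamts7 and Adamts12 cut COMP, and Adamts7 is known for promoting SMC migration. Adamts7 had 2 sites, both higher in Myocd-LSD1. Over its TSS, at chr8:97537972-97539098, the mean log2 level was 7.35 in Myocd-LSD1 against 6.28 in Myocd-LSD1NF (difference 1.07) with FDR 1.69e-05, in the authors' deposited table. In intron 9, at chr8:97557381-97558355 and 2962 bp upstream of a downstream TSS of the gene, the authors' deposited table gives 6.59 and 5.13 (difference 1.45, FDR 0.0028). All 3 H3K4me2 lists had a peak at both sites, and FLAG had one at the intronic site. Of the 26 peaks annotated to Adamts7, 10 lay inside the neighbouring Tbc1d2b. Adamts12 had 33 peaks and no site, and 8 of its 13 peaks in Myocd-LSD1NF overlapped no H3K4me2 peak of the other lines, as did 20.6% of the Myocd-LSD1NF peaks of all members and 13.6% of all Myocd-LSD1NF peaks.

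The 6 members grouped as linked to fibrillin or of other function, Adamts6, Adamts10, Adamts16, Adamts17, Adamts18 and Adamts19, had no site. Adamts10 and Adamts17, linked to fibrillin microfibrils and to short stature with lens defects in humans, had a promoter peak in all 3 H3K4me2 lists, and that of Adamts17 scored 811 in Myocd-LSD1NF. Adamts6 had the most peaks of any member, 38, of which 0 lay at its promoter and 8 lay inside Cenpk. Adamts16 had a promoter peak in Control (fold enrichment 6.05) and in neither fusion line, while its distal peak near chr1:34969665-34970187 was called in all 3. Adamts18 had 5 peaks in Myocd-LSD1NF, 1 in Control and 0 in Myocd-LSD1, all away from the promoter. Adamts19 had a FLAG peak in intron 6 with a score of 188, the third highest of the members by score, and a fold enrichment of 11.8, and under it an H3K4me2 peak in Control and in neither fusion line.

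The 5 ADAMTS-like members showed sites in both directions. Adamtsl1, a secreted matrix protein, had one of the largest differences at a promoter. The size of the Adamtsl1 difference is uncertain, because its Myocd-LSD1NF level was near -0.11, the lowest value of that column. At chr5:103789040-103789843, over its TSS, the authors' deposited table gives 4.34 on the log2 scale in Myocd-LSD1 against 0.58 in Myocd-LSD1NF (difference 3.76) with FDR 0.00186. A peak was called there in Control and in Myocd-LSD1, and no H3K4me2 peak was annotated to Adamtsl1 in Myocd-LSD1NF. Adamtsl3, the largest of these genes by peak number with 29, had a higher site near its start and lower sites deep in the gene. The site at chr1:144242146-144242787, 3183 bp inside the gene, had 7.30 and 6.45 (difference 0.85, FDR 0.00275) in the authors' deposited table. In intron 3, at chr1:144346886-144348069 and under a FLAG peak, the authors' deposited table gives 4.48 and 5.78 (difference -1.30, FDR 0.00608). The site in intron 7, at chr1:144396974-144397609, had 2.02 and 5.23 (difference -3.21, FDR 5.2e-06) in the authors' deposited table. Adamtsl2, Adamtsl4 and Adamtsl5 had promoter peaks in all 4 lists and no site.

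**Figure D4:**
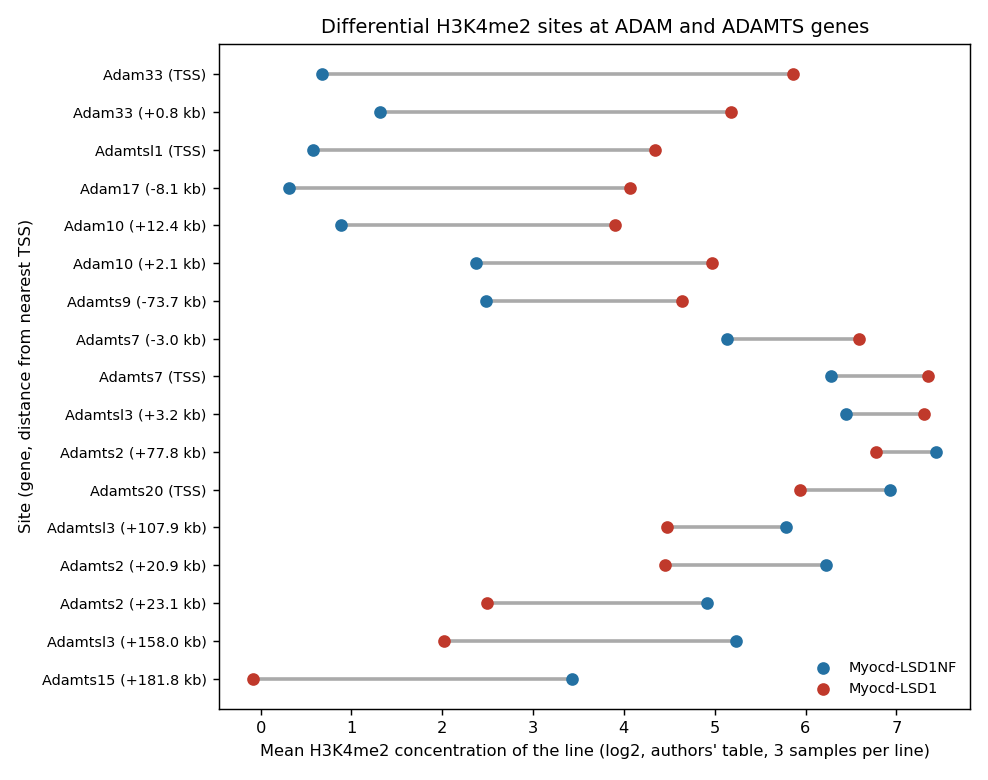
Mean log2 H3K4me2 concentration per line in the authors' deposited table (x axis) at the 17 differential sites of the members (rows, with the distance from the nearest TSS); red points are Myocd-LSD1, blue points Myocd-LSD1NF, and the table gives no spread per sample. The lines are joined to show the size of each difference, from 5.19 at the Adam33 TSS to -3.51 at the distal Adamts15 site, where Myocd-LSD1 is at the lowest value of its column.

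Together the members held 17 sites at 10 genes, with 7 lower sites at 4 members and 10 higher sites at 7, and Adamtsl3 in both counts. Against the 8.4% of all genes with a lower site and the 11.7% with a higher site, these are shares near the background, and members have more peaks than other genes, so they are not a result about the family. Among genes with 20 to 100 peaks, 34.5% had a lower and 32.9% a higher site, and of the 7 members in that range 2 had a lower and 2 a higher one. The median log2 difference of the higher member sites was 2.81, against 2.36 over all higher sites, and that of the lower ones -1.77, against -2.09, in the authors' deposited table, which lists only sites past its threshold. Higher member sites lay within 3 kb of a TSS in 6 of 10 cases (43.7% of all higher sites) and lower ones in 1 of 7 (23.0% of all lower sites). A Control peak was present at 6 of the 7 lower and at 6 of the 10 higher sites (83.8% of all lower and 69.2% of all higher sites), and a FLAG peak at 3 and at 2 of them (22.7% of all lower and 32.5% of all higher sites). Of the members' Myocd-LSD1 peaks, 4 (3.2%, against 2.66% of all) overlapped a lower site and 9 (7.2%, against 7.1%) a higher one, and of their Myocd-LSD1NF peaks 7 (5.15%, against 5.07%) overlapped a lower and 4 (2.94%, against 3.38%) a higher one. The 28 members without a site are not shown to be unchanged.

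**Figure D5:**
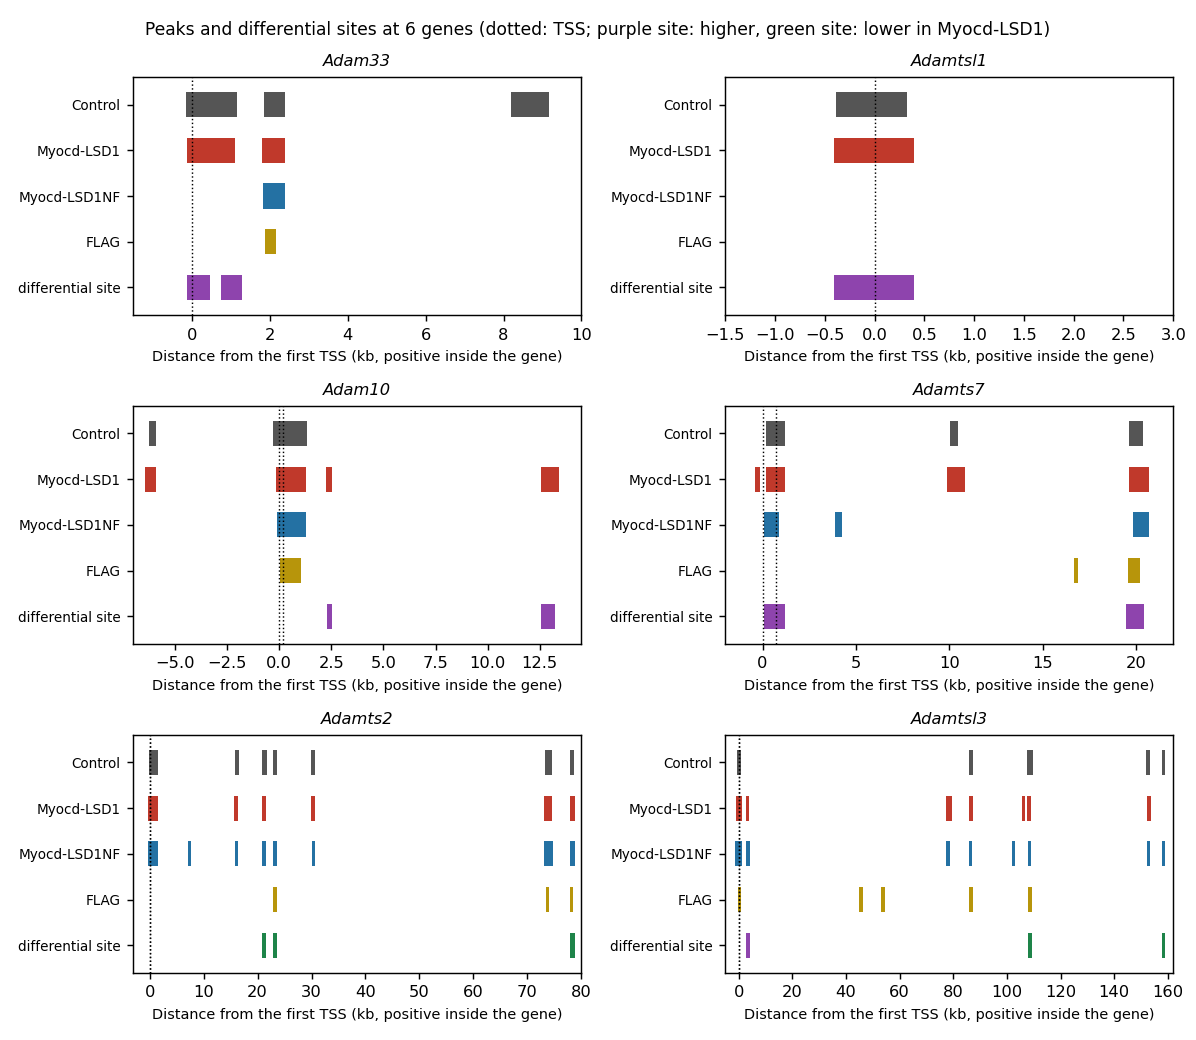
Peaks of the 4 lists and differential sites at 6 members, by distance from the first TSS (x axis, kb, positive inside the gene); dotted lines are TSSs, purple sites are higher and green sites lower in Myocd-LSD1. At Adam33 and Adamtsl1 the TSS peak is drawn for Control and Myocd-LSD1 and not for Myocd-LSD1NF, and at Adamts2 all 3 sites lie inside the gene.

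Across the 3 H3K4me2 lists the promoter peak was present in all of them at 25 members (57.6% of all genes), and in none at 8 (29.7% of all genes). The other 5 members were described above: Adamts16 in Control alone (3.37% of all genes), Adam23 and Adamtsl1 in Control and Myocd-LSD1 (3.2%), Adamts5 in Control and Myocd-LSD1NF (1.6%) and Adam5 in Myocd-LSD1 alone (1.97%). A peak missing from a list does not show that the mark is absent, and of these 5 members Adamtsl1 alone had a differential site. With a promoter of 1 kb, 23 members had the peak in all 3 lists, 7 in 1 or 2 and 8 in none. Adam11 and Adam33 are among the 25 only through Myocd-LSD1NF peaks 2579 and 1838 bp from a TSS. No member had its promoter peak in Myocd-LSD1NF alone (1.25% of all genes) or in both fusion lines without Control (1.23%). Overlaps between lines are given with their 95% exact intervals. Of the Myocd-LSD1NF member peaks 68.4% (59.9% to 76.1%) overlapped a Myocd-LSD1 peak, against 77.8% of all, and of the Myocd-LSD1 member peaks 73.6% (65.0% to 81.1%) overlapped a Myocd-LSD1NF peak, against 78.2%. FLAG peaks overlapped 37.6% (29.1% to 46.7%) of the members' Myocd-LSD1 H3K4me2 peaks and 42% of all such peaks. Of the members' 72 FLAG peaks, 18 (25.0%) had no H3K4me2 peak in any line, against 26.5% of all FLAG peaks.

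Genes that work with these proteases, in lists chosen with earlier results of these data known, were counted in the same way. Among the 5 inhibitors, Timp2 had a higher site 6012 bp upstream (log2 difference 1.57, FDR 5.12e-05) and Reck, a membrane-anchored inhibitor, a lower one (-2.10, FDR 0.0164) in the authors' deposited table, and Timp1, Timp3 and Timp4 had none. Of 21 substrates and ligands 19 were named in the lists, 5 with a higher and 3 with a lower site, where 11.7% of all genes had a higher and 8.4% a lower one. Among genes with 20 to 100 peaks, 32.9% had a higher and 34.5% a lower site. The partner lists were not set against genes of like peak number, so no excess is shown. Efna5, an ephrin shed by ADAM10, had 6 higher sites, several of them at the lowest value of the Myocd-LSD1NF column. The one nearest its TSS had a log2 difference of 4.95 and FDR 4.19e-07 in the authors' deposited table. Its Myocd-LSD1NF level, 0.31, was near that lowest value of -0.11. Comp, the substrate of ADAMTS7, had a higher site 1338 bp upstream of its TSS (log2 difference 1.19, FDR 0.00278 in the authors' deposited table), and Notch1 (0.62), Dll1 (1.44) and Cdh2 (0.61) had higher sites too. Fbn1, the fibrillin of microfibrils, had 2 lower sites (-2.57 and -1.41) and Ltbp1, which binds latent TGF-beta, 3 (-1.81 to -3.52), in the authors' deposited table. At the Ltbp1 site with -3.52 the Myocd-LSD1 level, 0.32, was near -0.08, the lowest value of that column. The lower site of Btc, an EGF receptor ligand, was at the lowest value of the Myocd-LSD1 column.

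Of 16 genes of transport and maturation 15 were named, 3 with a higher (11.7% of all genes) and 2 with a lower site (8.4% of all genes). Tspan5 and Tspan15 are tetraspanins that carry ADAM10 to the cell surface. Their sites, 127711 and 20950 bp from the TSS, differed in direction. The authors' deposited table gives a difference of 3.90 on the log2 scale for Tspan5 (FDR 0.000225) and -2.80 for Tspan15 (FDR 1e-05). The Myocd-LSD1NF level at the Tspan5 site, 0.63, was near -0.11, the lowest value of that column. Rhbdf2, the iRhom that carries ADAM17, had a lower site 2005 bp upstream (-1.03, FDR 0.011), and the proprotein convertases Pcsk5 (1.86) and Pcsk6 (2.08) had higher sites, in the authors' deposited table. Furin, which removes the prodomains of many members, had a promoter peak in all 4 lists and no site.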

How the data were processed

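Libraries were 9 for H3K4me2 and 4 for FLAG, 13 samples in all, grouped per the labels. Per the submitters' processing notes, Bowtie2, deepTools, MACS2, ChIPseeker, DiffBind and build rn6 were involved, in roles and with settings not described. The sources used here do not state Tn5 offsets, duplicate handling, scaling between libraries or pooling of replicates; peak names in each list carry a single alignment name. Depth per sample is unknown.

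In the deposited lists the score of a peak equals its -log10 q-value times 10, rounded down, in all but a few peaks. The fold, called fold enrichment above, is the authors' value headed as a fold change, and was used within a list only. The header does not state what the fold is taken against. The -log10 q-value is the authors' peak calling value. The authors' deposited DiffBind table holds log2 concentrations of each line and over both lines, their log2 difference (Myocd-LSD1 minus Myocd-LSD1NF), a p-value and an FDR of at most 0.05 for each site; its normalization is not stated. The distance to the TSS, in bases, and the annotation are the authors' ChIPseeker columns per the file headers.

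Starts were counted from 1. Sites were given to members whose peaks they overlap by at least 1 bp, and shares have 95% exact (Clopper-Pearson) intervals that cover counting error only. The overlap code was tested on simulated data. Python 3.11.15, pandas 2.3.3, numpy 2.4.6, scipy 1.17.1 and matplotlib 3.10.9 were used. Members, partner and marker lists were chosen with earlier results of these data known. Named were all members with a site, all with a promoter pattern that differs between lists, and the 5 members with the highest peak by score in each list, with the other members named once; of the partner genes, those with a site. Some further genes were named after their values were seen. No test of differences between lists was made, since a list has no replicate values. The 15 further family genes of the RefSeq table (53 symbols) were named in no list and are not analysed here.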

Additional observations from a re-analysis of the deposited data

How the results depend on the processing

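Alternatives tried were a promoter of 1 kb, an overlap of at least 50% of the shorter interval, the 50% of each list with the strongest q-values, stricter FDR and size limits, other ways to give sites to genes, and leaving out sites at the lowest value of a column. Of 54 values, 49 kept within their limits and 5 moved. The limits for counts were wide. A fall from 36 to 25 members with a Control peak, and a rise from 8 to 12 members without a promoter peak, counted as kept. The number of members with a FLAG peak was entered more than once. The median of the higher sites could not move without lowest-value sites, since 0 higher member sites were at such a value. With the strongest q-values, 3 members rather than 5 had a promoter peak in only some of the 3 lists, and the share of Control member peaks overlapping Myocd-LSD1 peaks was 82% rather than 71.9%, and overlapping Myocd-LSD1NF peaks 84% rather than 74.8%. With the stronger part of the FLAG list, 25.6% rather than 37.6% of the Myocd-LSD1 member peaks overlapped a FLAG peak. Without the Adamts15 site at the lowest column value the median lower difference was -1.54 rather than -1.77. The cause of these moves was not tested. At FDR at most 0.01, 13 of the 17 sites were left and Adamts15 and Adamts9 lost their only site. At an absolute log2 difference of at least 1, 14 were left and Adamts20 lost its only site. Counting any TSS within 3 kb, added for the promoter pattern after the data were seen, moved Adamts5 alone in that pattern. No paired analysis was possible because the lists and the comparison table carry no values per sample, and leaving out single replicates was not possible for the same reason. Read depth is unknown, and its part in peaks called in one list and not in another was not tested.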
